A study of Mus musculus with 8 samples.

Results

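A set of 10 genes of dead cell clearance and scavenging were followed in mouse dendritic cells given stem cell factor (SCF) under low oxygen. They were the receptor genes Mertk, Axl, Timd4, Stab1, Msr1, Marco and Scarb1 and the genes of the soluble bridging proteins Gas6, Pros1 and Mfge8. The 10 genes were taken from a fixed list of symbols, which was chosen with earlier results of these data known. Each gene was matched to 1 probe set among the 22180 genes that the array annotation names with a single symbol. The SCF group held 4 cultures that received SCF at 100 ng/ml, the ligand of the receptor kinase Kit, for the final 6 hours, and the medium group held 4 cultures left without it for the same time. All 8 cultures were wild-type cells of female C57BL/6 mice, whose age is not given in the sources used here, and came from 4 experiments named BC, D2, E and I that each supplied 1 culture to both groups. In both groups bone marrow had been grown with GM-CSF (20 ng/ml) for 7 days at 21% oxygen, CD11c-positive cells had been isolated on magnetic beads to a purity above 98%, and these cells had then been held for 2 days at 2% oxygen, again with GM-CSF. Both groups therefore share hypoxia and GM-CSF, and the comparison concerns the added SCF alone.

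Each culture was read on 1 Affymetrix array, so 8 values exist per gene, and 4 arrays per group limit the precision. Median intensities lay between 13.3 and 13.9 on the linear scale, with the highest median on the SCF array of BC. All 12 matched markers of conventional dendritic cells lay at or above the brightness filter, a mean log2 intensity of 4.05 over the 8 arrays, which is the median over all probe sets with a symbol. Of 12 matched macrophage markers 9 did so, of 10 mast cell markers 3, of 10 neutrophil markers 2, of 5 B cell markers 1, of 5 T and NK cell markers 0 and of 7 markers of stroma and endothelium 1. The CD11c gene Itgax averaged 10.02 ± 0.23 (log2, SD, n = 4) with SCF and 10.08 ± 0.12 in medium.

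Phagocytes remove dying cells by efferocytosis, in which phosphatidylserine exposed on the dying cell is recognised either directly or through a soluble bridge. Mertk and Axl are receptor tyrosine kinases of the TAM family, Gas6 and protein S (the product of Pros1) tie them to phosphatidylserine, and Mfge8 ties the same lipid to alpha-v integrins. Timd4 and Stab1 bind phosphatidylserine directly. Scavenger receptors such as Msr1, Marco and Scarb1 take up modified lipoproteins, microbial surfaces or lipids, and some also take part in the binding of dead cells. In dendritic cells this uptake feeds antigen presentation, and signals through TAM kinases dampen inflammatory responses.

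Mertk and Pros1 had the lowest fitted changes of the 10 genes and are shown here with the 250 bases before their annotated start, 5′ to 3′ on the gene's strand, from the RefSeq promoter table of build GRCm38.p6. Mertk lies at chr2:128698665-128698914 and Pros1 at chr16:62854057-62854306, both on the plus strand. Capitals mark GGGCGG, the GC box read by Sp factors, on either strand.
Mertk: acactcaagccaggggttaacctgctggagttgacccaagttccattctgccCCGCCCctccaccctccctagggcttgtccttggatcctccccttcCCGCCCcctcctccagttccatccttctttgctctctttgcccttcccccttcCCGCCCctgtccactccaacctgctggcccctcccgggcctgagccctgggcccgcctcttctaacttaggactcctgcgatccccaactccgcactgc
Pros1: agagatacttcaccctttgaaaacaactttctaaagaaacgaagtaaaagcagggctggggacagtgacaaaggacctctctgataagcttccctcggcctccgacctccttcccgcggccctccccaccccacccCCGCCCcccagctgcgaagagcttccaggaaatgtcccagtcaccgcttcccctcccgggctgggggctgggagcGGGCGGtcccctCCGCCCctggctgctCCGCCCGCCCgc
The Mertk window held 3 GC boxes and the Pros1 window 5, of which the last pair before the Pros1 start overlap each other. Such a box was present in 5 of the 8 windows found for the 10 genes (those of Mertk, Axl, Gas6, Pros1 and Mfge8, and not those of Timd4, Stab1 and Marco), against 32.7% of 32851 windows of the same length over all genes. Msr1 and Scarb1 had no entry. The windows with a box were 54.8% to 65.2% G and C, and those without 47.6% to 57.2%, against a median of 52.4% over all. The part of base composition in the share with a box was not tested. Another 4 motifs were searched on both strands, and none of them had a match in the Mertk and Pros1 windows. GAGGAA, the core of PU.1 sites, occurred in 4 of the 8 windows (Axl, Stab1, Marco and Mfge8) and in 23.3% of all. AGGTCA, a half-site of nuclear receptors, occurred in 1 of 8 (Timd4) and in 14.0% of all. ACGTG, the core of hypoxia response elements, was found in 0 of 8 and in 16.6% of all, and the AP-1 letters TGANTCA in 0 of 8 and in 6.75% of all. These matches describe the letters of the windows only.

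Setting SCF against medium asks whether 6 hours of the factor changed the RNA of these genes in cells already held at low oxygen. No gene of the 10 passed the test. In limma, with the arrays paired by experiment, 0 of the 8 genes bright enough to be tested and 0 of all 12668 tested probe sets (0%) had an adjusted p under 0.05. Fitted log2 changes of the 10 ran between −0.20 and 0.06. Every 95% interval from limma, which shares variance between probe sets, lay within 1.5-fold in both directions. The single difference of Pros1 in BC, −0.77, lay outside that bound. Timd4 and Stab1 were below the filter, and without a detection call their intervals say little of their RNA. Of the 10 fitted changes 8 were below 0, with a median of −0.06. Without the filter 46.9% of all single-symbol probe sets were below 0, with a median of 0.0047. Among the 8 tested genes 7 were below 0, with a median of −0.09, against 49.5% and 0.00077 for all tested probe sets. The genes were chosen with earlier results of these data known, so these counts are descriptions. Of the 10 genes, those above 0 were Stab1 and Marco. Without experiment BC the median of the 10 was −0.0077, and those above 0 were Marco and Mfge8. Before adjustment 1 gene, Mertk, had a p under 0.05, as had 4.21% of all tested probe sets.

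**Figure D1:**
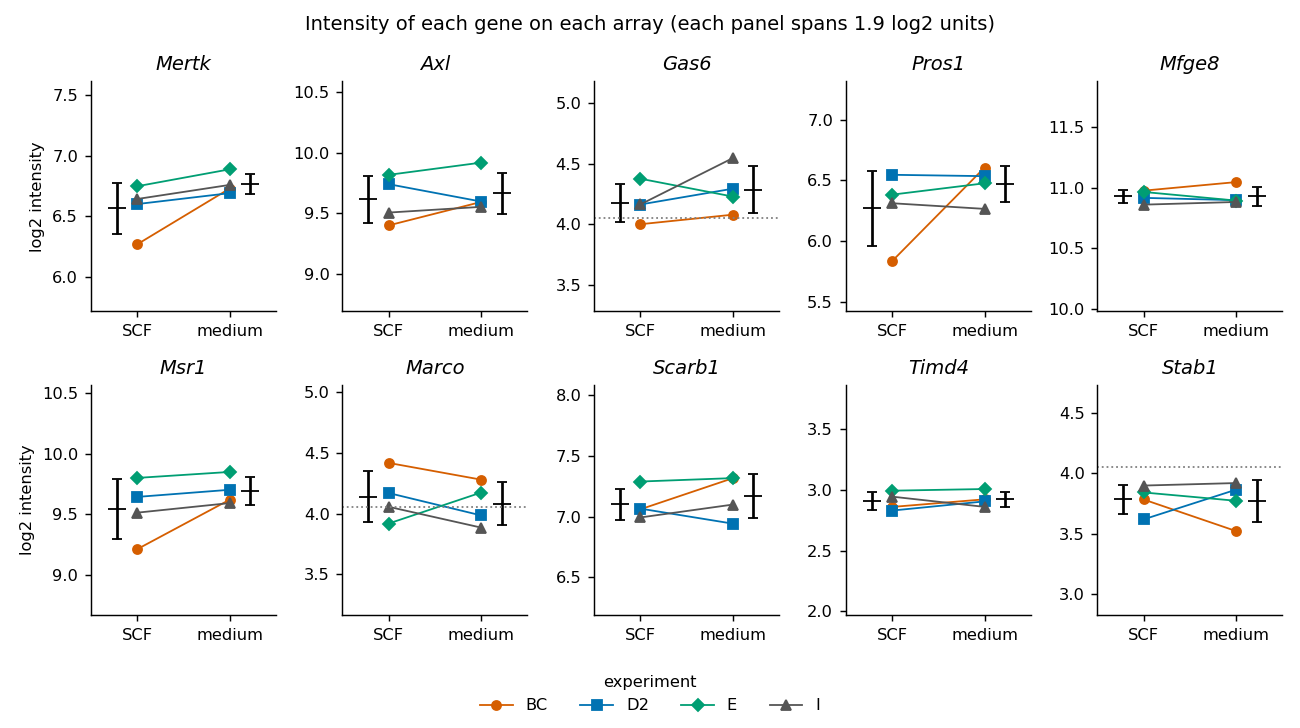
Log2 intensity (vertical axis) of each of the 10 genes on every array, SCF at left and medium at right. Lines join the cultures of 1 experiment, black marks beside them give the group mean with its SD (n = 4), and the dotted line marks the filter of 4.05 where it falls in the panel. The SCF array of BC is the lowest of its panel for Mertk, Axl, Gas6, Pros1 and Msr1.

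Of the TAM kinases, Mertk was below its medium value in every experiment. Mertk, a receptor kinase used by macrophages to engulf dead cells, had log2 intensities of 6.27 (BC), 6.60 (D2), 6.75 (E) and 6.64 (I) with SCF, against 6.73, 6.69, 6.89 and 6.76 in the same experiments in medium. The SCF array of BC stood well below the rest, those of D2 and I just below the medium range, and that of E within it. The fitted log2 change was −0.20 (SE 0.07, 95% interval −0.37 to −0.03), or 0.870-fold, with an unadjusted p of 0.0269 and an adjusted p of 0.945 in limma. An exact two-sided sign-flip permutation over the 4 pairs gave p = 0.125, the smallest that 4 pairs allow. The differences were −0.46 (BC), −0.09 (D2), −0.14 (E) and −0.12 (I), so without BC the change was −0.12.

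Axl, the TAM kinase known on dendritic cells and induced there by type I interferon, read 9.40, 9.74, 9.82 and 9.51 with SCF in BC, D2, E and I, against 9.59, 9.60, 9.92 and 9.55 in medium. The groups overlapped, and experiment E gave the highest value in both. Axl differed by −0.05 (SE 0.07, 95% interval −0.20 to 0.10, limma adjusted p = 0.960), below 0 in 3 of 4 experiments and at 0.14 in D2. The value was −0.0016 without BC and −0.11 without D2. Tyro3, the other TAM kinase, averaged 4.95 with SCF and 4.96 in medium. It differed by −0.0065 (SE 0.06), with −0.19 in BC and values above 0 in the other 3 experiments, and by 0.05 without BC.

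Of the bridging proteins, Pros1 had the lowest fitted change, which rested on BC. Pros1, the gene of protein S, an anticoagulant that is also a TAM ligand, read 5.83 (BC), 6.55 (D2), 6.38 (E) and 6.31 (I) with SCF, against 6.61, 6.54, 6.48 and 6.27 in medium. Only the SCF array of BC lay outside the range of the medium arrays. Its fitted change of −0.20 (SE 0.13) had a 95% interval of −0.51 to 0.11 and an adjusted p of 0.945 in limma, and came with a difference of −0.77 in BC and of −0.09 to 0.05 elsewhere. Without BC it was −0.01. In BC only 8 of the 12668 tested probe sets (0.0632%) had a difference as low as that of Pros1 or lower, Pros1 included.

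Gas6, the ligand shared by all TAM kinases, was dim. It read 4.00, 4.16, 4.38 and 4.16 with SCF in BC, D2, E and I, and 4.08, 4.29, 4.23 and 4.55 in medium, with 7 of 8 arrays at or above the filter. The groups overlapped widely. Gas6 differed by −0.11 (SE 0.08, 95% interval −0.31 to 0.09, limma adjusted p = 0.945), with −0.38 in I and 0.15 in E, and by −0.02 without I and −0.20 without E.

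Mfge8, whose product is also called lactadherin, was bright and the steadiest of the 8 tested genes, with an SD of 0.06 over the 8 arrays. Its log2 intensities were 10.98, 10.92, 10.96 and 10.86 with SCF in BC, D2, E and I, against 11.05, 10.90, 10.89 and 10.88 in medium. Mfge8 differed by −0.00067 (SE 0.05, limma adjusted p = 1.00), and its 95% interval of −0.12 to 0.12 corresponds to 0.919-fold to 1.09-fold. Both signs occurred, with 2 experiments on each side of 0.

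The direct phosphatidylserine receptors Timd4 and Stab1 were below the filter on all 8 arrays and were not tested with the rest. Timd4, a receptor known from resident macrophages, ranged between 2.83 and 3.00 with SCF and between 2.86 and 3.01 in medium. Stab1, the gene of stabilin 1, known from sinusoidal endothelium and some macrophages, read 3.78, 3.62, 3.84 and 3.90 with SCF in BC, D2, E and I, and 3.52, 3.86, 3.77 and 3.92 in medium. In the fit over all 41345 probe sets Timd4 differed by −0.02 (SE 0.05) and Stab1 by 0.02 (SE 0.09), with a limma adjusted p of 1.00 for each. The sign of Stab1 differed between experiments, at 0.26 in BC and −0.25 in D2. Since the table holds no detection call, these values do not tell a low level from none.

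Among the scavenger receptors, Msr1 was below its medium value in 4 of 4 experiments. Msr1, the class A receptor of modified lipoproteins, read 9.21 (BC), 9.64 (D2), 9.80 (E) and 9.51 (I) with SCF, against 9.62, 9.70, 9.85 and 9.59 in medium. Apart from BC, the SCF arrays lay within 0.08 of their medium partners, and the groups overlapped. The fit gave −0.15 (SE 0.07), with a 95% interval of −0.32 to 0.02 and an adjusted p of 0.945 in limma. Without BC, where the difference was −0.41, it gave −0.06. The exact sign-flip permutation p was 0.125, as for Mertk. These 2 genes were the only ones of the 10 below 0 in all 4 experiments, and 6.44% of all tested probe sets were.

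Marco, a class A receptor with a collagenous stalk, lay near the filter, with 5 of 8 arrays at or above it. Marco read 4.42, 4.17, 3.92 and 4.06 with SCF in BC, D2, E and I, against 4.28, 3.98, 4.17 and 3.88 in medium, and the groups overlapped. It differed by 0.06 (SE 0.08, 95% interval −0.13 to 0.25, limma adjusted p = 0.960), above 0 in 3 experiments and at −0.26 in E, and the value was 0.16 without E and 0.02 without D2.

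Scarb1, the class B receptor of high-density lipoprotein, read 7.06, 7.07, 7.29 and 6.99 with SCF in BC, D2, E and I, against 7.32, 6.94, 7.32 and 7.10 in medium. The ranges overlapped almost fully. Scarb1 differed by −0.07 (SE 0.07, 95% interval −0.23 to 0.10, limma adjusted p = 0.951), with −0.26 in BC and 0.12 in D2, and by −0.0035 without BC and −0.13 without D2.

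**Figure D2:**
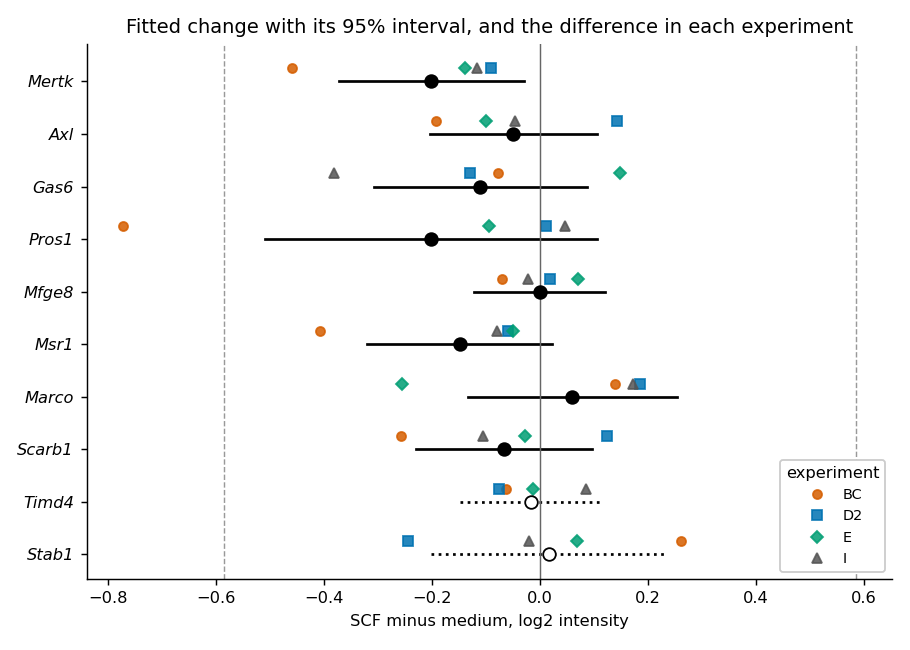
SCF minus medium on the log2 scale (horizontal axis) for the 10 genes. Large circles with lines are the fitted changes with 95% intervals, open with dotted lines for the untested Timd4 and Stab1, coloured symbols are the 4 experiments, and dashed lines mark 1.5-fold. All 10 intervals lie inside the dashed lines, and the BC symbol lies to the left of the interval for Mertk, Pros1, Msr1 and Scarb1.

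The 4 experiments did not carry these differences equally. In BC 8 of the 10 genes lay below 0, with a median difference of −0.14, against medians of −0.02 (D2), −0.04 (E) and −0.03 (I). Over all tested probe sets the median difference in BC was −0.0075, with 52.1% below 0. Mertk in BC was among the lowest 0.955% of tested probe sets of that experiment, and Msr1 among the lowest 1.67%. Gas6 reached the lowest 1.84% in I, while in D2 all 10 genes lay within the middle 90% of tested probe sets.

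**Figure D3:**
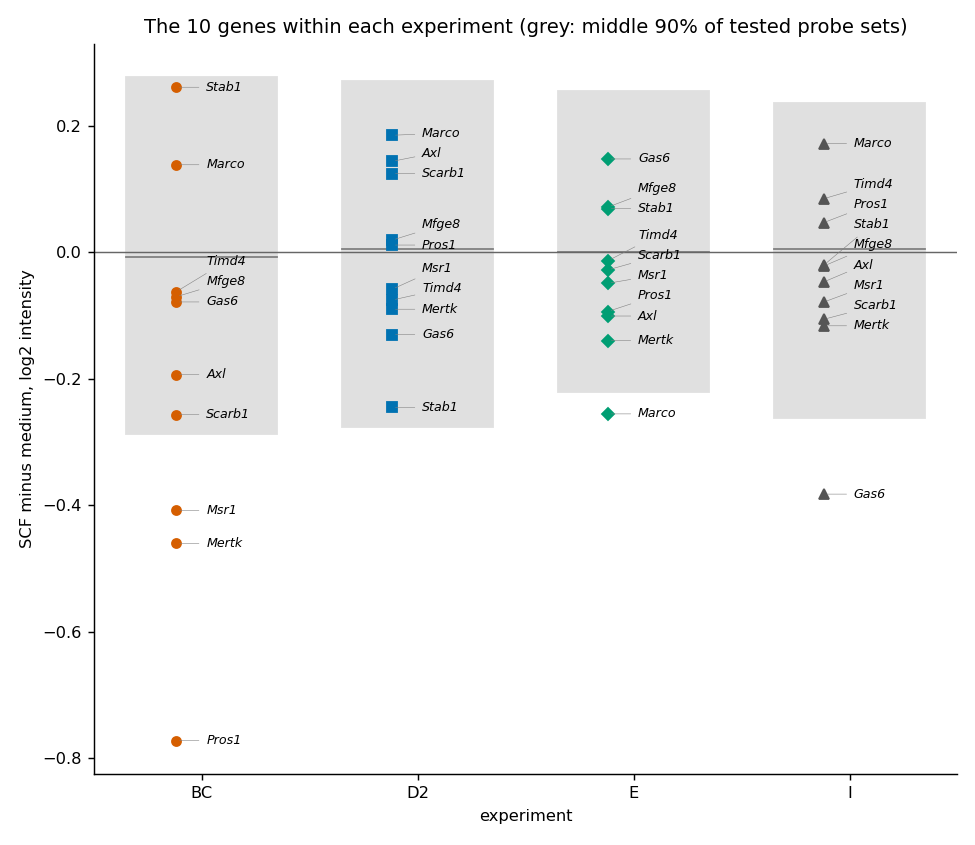
SCF minus medium (log2, vertical axis) of each of the 10 genes within experiments BC, D2, E and I. Grey boxes hold the middle 90% of the tested probe sets of the experiment, with their median as a line. Pros1, Mertk and Msr1 lie below the box in BC, Marco in E and Gas6 in I.

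Macrophage markers were also lower with SCF in BC. Of the 9 macrophage markers at or above the filter, 8 were below 0 in BC, with a median of −0.23, led by the mannose receptor gene Mrc1 at −0.64, the Fc receptor gene Fcgr1 at −0.39 and the complement gene C1qb at −0.31, with C1qa at 0.08. Their median was 0.12 in D2, −0.01 in E and −0.05 in I. Fitted over all experiments 8 of the 9 were below 0 and 0 passed the adjusted threshold, and without BC 2 of the 9 were below 0. The summed linear intensity of the 12 matched markers ranged from 3608 to 4559 with SCF and from 3805 to 4821 in medium. Of these 12 markers Vsig4, Cd163 and C1qc were below the filter. Of the 12 dendritic cell markers 2 were below 0 in BC (Itgax at −0.24 and Kmo at −0.22), with a median of 0.11. The dendritic cell median was 0.0074 in D2, 0.04 in E and 0.06 in I. Fitted over all experiments 2 of the 12 were below 0, and without BC 5 were, with a median of 0.0045. Their summed intensity ranged from 9018 to 9263 with SCF and from 8785 to 9151 in medium. The part of these shifts in the values of Mertk, Pros1 and Msr1 was not tested. In bulk RNA, fewer cells of a type and less RNA per cell cannot be told apart.

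**Figure D4:**
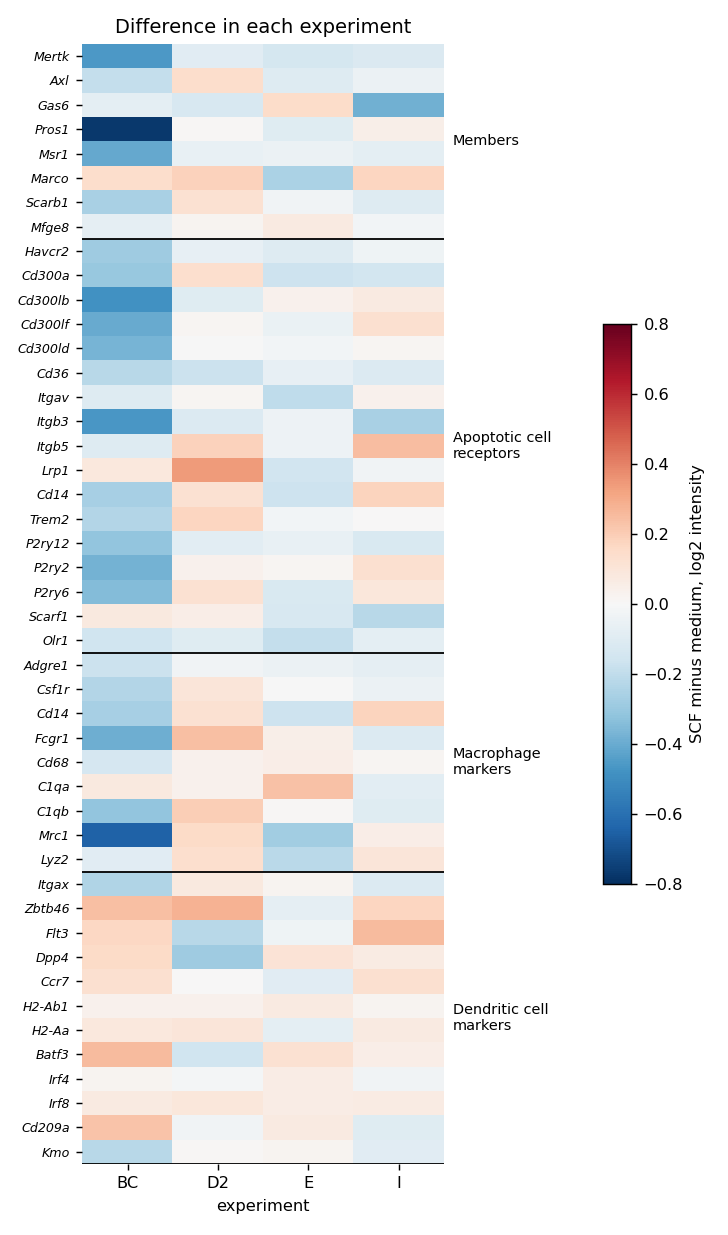
SCF minus medium (log2, colour) in each experiment (columns) for the 8 tested genes of the set, the tested genes of the apoptotic cell receptor list, macrophage markers and dendritic cell markers (rows). The BC column is blue for most rows of the upper blocks, including 15 of 17 genes of the apoptotic cell receptor list and 8 of 9 macrophage markers. It is red for 10 of 12 dendritic cell markers.

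Genes of the same processes were counted in 6 lists holding 115 symbols, some of the 10 among them. Of these symbols 109 were matched and 87 tested, with 0 past the adjusted threshold. The lists were also chosen with earlier results of these data known, so their counts are descriptions. Of the list of TAM kinases and bridging proteins 10 of 12 were tested, 9 below 0, with a median of −0.04, against 49.5% of all tested probe sets below 0. Mertk, Axl, Gas6, Pros1 and Mfge8 are among those 9, so the count partly repeats that of the 10 genes. Without BC 6 of the 10 tested were below 0, with a median of −0.0068. Adam10, a sheddase of surface proteins, was at −0.08 (SE 0.05), or −0.05 without BC, and the related Adam17 at −0.03 (SE 0.07), or 0.03 without BC. The integrin bridge gene Edil3 was at 0.03 (SE 0.05), or 0.02 without BC, 0.01 without E and 0.07 without I. The wider list of apoptotic cell receptors also holds the nucleotide receptor genes P2ry2, P2ry6 and P2ry12. It had 17 of 25 tested, 15 below 0 and 2 above, with a median of −0.08. That median was −0.28 (BC), 0.02 (D2), −0.07 (E) and 0.0034 (I), and without BC 9 of the 17 were below 0, with a median of −0.0012.

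In this list 4 members, all lower with SCF, had an unadjusted limma p under 0.05, as had 2.26% of all tested probe sets in that direction. Other lists held such genes in both directions. Those lower with SCF were Mertk of the TAM list, again Cd36 and Olr1 with Colec12 among scavenger receptors, and Thbs1 among signals to phagocytes. Engulfment genes had 2 (Rubcn and Abca7) and regulators 1 (Rxrb), all higher with SCF in 4 of 4 experiments. The integrin subunit gene Itgb3, a partner of alpha-v in the binding of Mfge8, averaged 5.30 with SCF and 5.52 in medium, a change of −0.22 (SE 0.08), or −0.14 without BC. Cd36, a class B scavenger receptor gene, averaged 9.77 with SCF and 9.92 in medium, a change of −0.14 (SE 0.05). Olr1, which encodes the receptor of oxidised low-density lipoprotein, was at −0.13 (SE 0.05), between −0.19 and −0.08 in the 4 experiments. The fourth, the purine receptor gene P2ry12, was at −0.15 (SE 0.06), or −0.09 without BC, and was chosen after its values were seen. All 4 were below 0 in 4 of 4 experiments, as were 6.44% of all tested probe sets. Choosing genes by a paired p favours such agreement in sign, so it adds no support. The limma adjusted p of each of Itgb3, Cd36 and Olr1 was 0.945.

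The other 4 lists were closer to balance between the signs, and their medians moved or turned without BC. Without it the median was 0.01 with 5 of 13 below 0 for scavenger receptors and 0.02 with 7 of 20 for engulfment. It was 0.01 with 7 of 16 for regulators and −0.02 with 10 of 15 for signals that attract or hold off phagocytes. The scavenger receptor list had 13 of 22 matched genes tested, 7 below 0, with a median of −0.01, and its leading genes beside Cd36 and Olr1 included the collectin gene Colec12 at −0.16 (SE 0.06), or −0.10 without BC. Engulfment and corpse handling genes had 11 of 20 above 0 and a median of 0.01. Among them Rubcn, which acts in LC3-associated phagocytosis, was at 0.15 (SE 0.05), between 0.14 and 0.17 whichever experiment was left out. The lipid transporter gene Abca7 was at 0.19 (SE 0.07), or 0.12 without D2, and Odc1, the enzyme gene that starts polyamine synthesis, at 0.10 (SE 0.08), or 0.02 without D2 and 0.18 without BC. Nuclear receptors and other regulators had 9 of 16 below 0 and a median of −0.01, with the retinoid X receptor gene Rxrb at 0.17 (SE 0.05), Klf4 at −0.09 (SE 0.05) and Tfec at −0.12 (SE 0.07), or −0.04 without BC. Genes of signals that attract or hold off phagocytes had 9 of 15 below 0 and a median of −0.04. They were led by the thrombospondin gene Thbs1 at −0.29 (SE 0.10), or −0.18 without E. The fractalkine gene Cx3cl1 was at 0.11 (SE 0.07), which was 0.07 without E and 0.18 without I. Its receptor gene Cx3cr1 stood at the filter and passed it only through the SCF group, with 3 SCF arrays and 0 medium arrays at or above it, so its value of 0.13 (SE 0.06), or 0.08 without BC, supports nothing.

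Across the 8 arrays, which come from 4 experiments and are not independent, some of the 10 genes ran together. The highest Pearson's r among the 28 pairs of tested genes was that of Mertk and Msr1 (r = 0.911), which was 0.699 over the 6 arrays left without BC. Axl and Msr1 had r = 0.885 with all 8 arrays and 0.900 without BC. Mertk and Pros1 had r = 0.753, but −0.128 without BC. The lowest was that of Gas6 and Marco, both near the filter, at −0.915, or −0.843 without BC. Pros1 and Msr1 had the largest SD over the arrays among the tested genes, at 0.25 and 0.20. Of 11350 other genes above the filter, those most like Msr1 were Lrp12 (r = 0.995), the NADPH oxidase gene Cybb (0.986) and Gde1 (0.985), with values of 0.994, 0.976 and 0.989 without BC. Those most like Pros1 were Exog (0.953), Plpbp (0.952) and the urokinase gene Plau (0.947), with values of 0.796, 0.826 and 0.974 without BC. These correlations are descriptions over 8 arrays and were taken from a ranking of many genes.

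**Figure D5:**
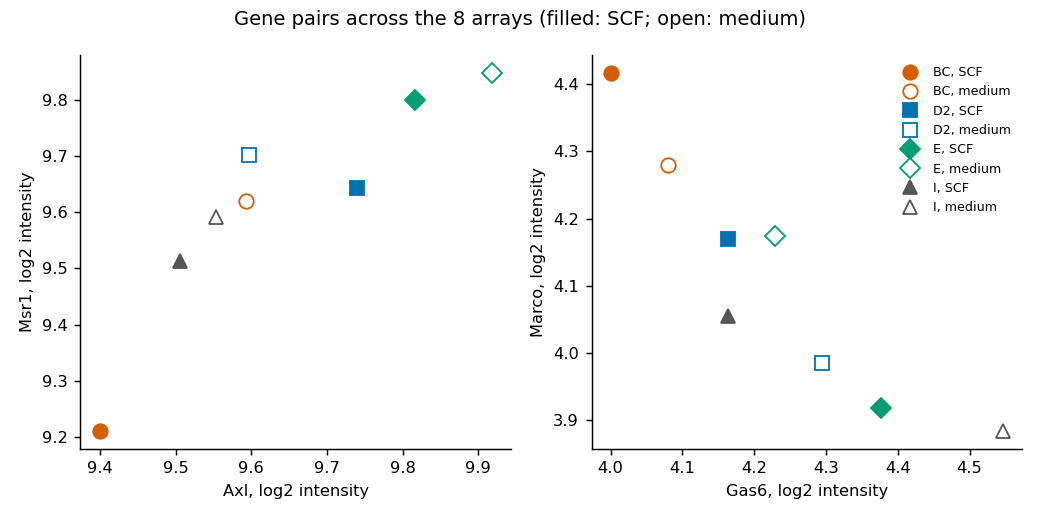
Log2 intensities of Msr1 against Axl (left) and of Marco against Gas6 (right) on the 8 arrays, filled symbols for SCF and open symbols for medium, 1 colour per experiment. Msr1 and Axl are both lowest on the SCF array of BC and highest on the medium array of E, while Marco is highest where Gas6 is lowest.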

How the data were processed

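RNA of 8 cultures was measured on Affymetrix whole-transcript arrays with 1 colour. RMA, named in the submitters' processing notes without a version, had been used by the authors to make the deposited intensity of every probe set on each array. The values are linear by their range, so log2 was taken with no pseudocount or further normalization. RMA normalizes between arrays, so values are relative, and no background level or detection call is given.

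Of 41345 probe sets, 23521 carried 1 symbol. Each of the 10 genes had 1 such probe set, and the Entrez numbers of all 10 matched RefSeq (GRCm38.p6, used for names). Probe sets with a symbol were tested where the mean log2 intensity reached 4.05, their median, which left 12668. Timd4 and Stab1 fell below it and were fitted among all probe sets.

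SCF was compared with medium by a two-sided limma test (version 3.58.1, R 4.3.3) that took experiment as a block, and p-values were adjusted by Benjamini-Hochberg over all tested probe sets. The pairing comes from the design text. Deviations from the group means correlated at 0.36 to 0.46 between arrays of the same experiment. The fit was tested on simulated data. Single values were also tested by an exact sign-flip permutation. The labels do not say which animals each experiment used, so p-values measure the spread between these experiments only.

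All 10 genes were named, with the 3 smallest p-values of each list and, for the pair of tested genes with the largest SD, the 3 most correlated genes. The genes and lists were chosen with earlier results of these data known. Alternatives covered the block, filter, scaling, variance trend, probe set choice and each experiment left out.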

Additional observations from a re-analysis of the deposited data

Results flagged for a closer look

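Within groups of 4 values, 5 of 30 checks on the 10 genes had a value farther from its nearest neighbour than Dixon's 95% critical value allows, where chance flags about 1 in 20 groups. The checks are not independent, since the genes share arrays and each difference reuses values that were also checked. The share expected by chance is therefore only a rough guide. The difference of Pros1 in BC, −0.77, fell just short of the critical value. The SCF minus medium difference of Mertk in BC, −0.46, lay apart from the next at −0.14, and that of Msr1 in BC, −0.41, from the next at −0.08. Marco differed by −0.26 in E, apart from 0.14 and above in the other experiments. Among medium arrays, Axl in E at 9.92 and Mfge8 in BC at 11.05 lay above the rest of their groups. The causes were not tested.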

How the results depend on the processing

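No probe set and none of the 10 genes passed the threshold under any of the 12 alternatives run, with adjusted p-values of the 10 genes no lower than 0.686. Without the replicate block 0 probe sets passed, and 125 stood at an unadjusted p under 0.05, against 533 with it and 429 with experiment as a random block; Mertk then had an unadjusted p of 0.0712. The count of the 10 genes above 0 was 1 with equalized array medians and 1 after repeated quantile normalization, against 2 otherwise, since Stab1 turned to −0.0034 and −0.0027. With an experiment left out that count ran from 1 to 3, and the median of the 10 from −0.11 to −0.0077. In the same way Stab1 ran from −0.066 to 0.103, Timd4 from −0.051 to 0.0026, Mfge8 from −0.025 to 0.023, Adam17 from −0.074 to 0.031 and Tyro3 from −0.049 to 0.054. The other 23 of 28 named genes kept their sign in all alternatives. Counting list members without BC was added after seeing the data. The number of arrays, 4 per group, and the lack of a background level limit what can be said of dim genes.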
